A study of Mus musculus with 16 samples.

Results

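Bile acids are made from cholesterol in hepatocytes, and together with the sterols that hepatocytes pump into bile they are the main route by which cholesterol leaves the body. The liver expression of 10 genes of this route was examined: Cyp7a1, Cyp8b1, Cyp27a1, Baat, Slc10a1, Abcb11, Abcg5, Abcg8, Nr0b2 and Nr1h4. They were taken by symbol from a table of 15544 mouse genes, each matched exactly 1 row, and all 10 were among the 12704 genes that were tested. The table holds bulk liver RNA-seq of female mice aged 27 weeks, in 16 libraries that form 4 groups of 4. Control animals were Esr1fl/fl, that is, they carried floxed alleles of the oestrogen receptor α gene without Cre. Mutant animals were Esr1Nkx2-1Cre, in which Cre driven by the Nkx2-1 promoter deletes the same floxed alleles in hypothalamic cells, among them those of the arcuate nucleus. Within each genotype, 4 libraries came from mice on standard breeder chow and 4 from mice that ate a high-fat diet (HFD) over the last 17 weeks, all with free access to food. The question the groups address is how the liver differs between mutants, which have dense bone on chow, and controls, and whether diet alters that difference. The deletion is not aimed at hepatocytes.

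Bile acid synthesis runs along a classical pathway, opened by Cyp7a1 (cholesterol 7α-hydroxylase, the rate-limiting enzyme), and an alternative pathway, in which Cyp27a1 (mitochondrial sterol 27-hydroxylase) acts early. Cyp8b1 (sterol 12α-hydroxylase) sets how much of the product becomes cholic acid, and Baat joins the finished acids to taurine or glycine. Slc10a1 (NTCP) takes conjugated bile acids up from portal blood and Abcb11 (BSEP) pumps them into the canaliculus, whereas Abcg5 and Abcg8 are half-transporters that work as a heterodimer and export cholesterol and plant sterols. Nr1h4 (FXR) is the nuclear receptor that senses bile acids, and Nr0b2 (SHP) is a target of it that represses Cyp7a1 and Cyp8b1, which closes a feedback loop.

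The sequences below show stretches just upstream of Abcg5, Abcg8, Nr0b2, Cyp27a1 and Slc10a1. These are among the members whose levels moved together or in opposite directions in the results that follow. Abcb11 is printed as well. Its values did not overlap between diets in mutants, by a narrow gap (132 against 134, limma adjusted p = 0.71). Over all genes 3.53% did not overlap in that comparison. The sequences are RefSeq promoter windows on GRCm38.p6, read 5′ to 3′ on the strand given, and they end at the base before the transcription start. Capitals mark the TATA motif TATAAA, the GATA motif GATAAG or the nuclear receptor half-site AGGTCA. A motif on the opposite strand appears as TTTATA for the first of these, as CTTATC for the second and as TGACCT for the half-site. Of the 10 genes, 8 had a window, and Cyp7a1 and Baat had none. The windows of Cyp8b1 and Nr1h4 are not printed. Slc10a1 and Abcg8 each had 2 starts, of which 1 is printed.
Between the starts of Abcg5 (minus strand) and Abcg8 (plus strand), chr17:84683012-84683120, plus strand: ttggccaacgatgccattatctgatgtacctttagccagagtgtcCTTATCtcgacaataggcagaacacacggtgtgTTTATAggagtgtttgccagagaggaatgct
Nr0b2, chr4:133553126-133553375, plus strand: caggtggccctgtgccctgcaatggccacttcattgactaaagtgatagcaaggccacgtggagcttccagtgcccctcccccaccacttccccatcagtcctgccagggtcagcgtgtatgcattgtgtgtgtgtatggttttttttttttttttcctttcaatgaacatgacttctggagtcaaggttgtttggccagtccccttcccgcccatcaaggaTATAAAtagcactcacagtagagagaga
Cyp27a1, chr1:74713285-74713534, plus strand: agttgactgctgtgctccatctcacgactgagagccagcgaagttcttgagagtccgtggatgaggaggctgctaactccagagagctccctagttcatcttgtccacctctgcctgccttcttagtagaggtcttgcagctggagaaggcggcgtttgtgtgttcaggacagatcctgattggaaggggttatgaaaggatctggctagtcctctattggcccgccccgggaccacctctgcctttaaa
Slc10a1, chr12:80968706-80968955, minus strand: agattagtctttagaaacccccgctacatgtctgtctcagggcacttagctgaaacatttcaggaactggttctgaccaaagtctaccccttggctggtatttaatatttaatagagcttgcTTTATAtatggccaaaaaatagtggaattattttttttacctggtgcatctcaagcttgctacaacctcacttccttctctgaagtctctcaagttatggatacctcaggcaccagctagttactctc
Abcb11, chr2:69342617-69342866, minus strand: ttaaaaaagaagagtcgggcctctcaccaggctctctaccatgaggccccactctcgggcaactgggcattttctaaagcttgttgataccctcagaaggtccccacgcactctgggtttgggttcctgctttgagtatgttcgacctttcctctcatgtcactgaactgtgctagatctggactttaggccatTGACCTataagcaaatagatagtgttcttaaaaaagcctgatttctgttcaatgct

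In the GENCODE annotation of GRCm38 all 10 are protein-coding genes, and 3 of them lie on chromosome 4: Cyp7a1 at chr4:6265612-6275633 (minus strand), Baat at chr4:49489422-49506557 (minus) and Nr0b2 at chr4:133553376-133556536 (plus). Cyp27a1 spans chr1:74713574-74737892 (plus), Cyp8b1 chr9:121914356-121916305 (minus), Slc10a1 chr12:80953183-80968705 (minus), Abcb11 chr2:69238282-69342616 (minus) and Nr1h4 chr10:89454234-89533585 (minus). Abcg5 at chr17:84658234-84683011 (minus) and Abcg8 at chr17:84676302-84700333 (plus) overlap in that annotation. By the start windows printed here the pair lies head to head, and these RefSeq starts left only 109 bases between them, so that a GATAAG and a TATAAA in that stretch stand upstream of both genes. Nr0b2 carried TATAAA from 28 to 23 bases before its start, Slc10a1 carried it on the other strand from 128 to 123 bases before its start, and Abcb11 carried the half-site on the other strand from 56 to 51 bases before its start. The second Slc10a1 window, at start 80968079, held no TATAAA but the half-site from 87 to 82 bases before that start, and the second Abcg8 window, at start 84676302, held no motif of the 3. The Cyp27a1 window held none of the 3 motifs. Over 32817 promoter windows of 250 bases, TATAAA was in 12.4%, GATAAG in 6.55% and AGGTCA in 14.0%, counting both strands. These matches are of letters only, and no binding was measured.

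The unit of the values is not stated. Fractional values, the authors' use of kallisto and sleuth, and column totals near but not at those of TPM are what would be seen of TPM per gene, a unit that divides out gene length and library size, after a further scaling between libraries. The values are read as such here, and comparisons of levels between genes rest on that reading. The column totals lay between 905897 and 1119703, and since the table gives no read counts, the depth behind a value is unknown and no counting interval can be given. The library titles are numbers that fall into 2 runs on each diet, and the labels do not say what the runs stand for. On HFD the lower-numbered run held 3 controls and 1 mutant and the higher-numbered run held 1 control and 3 mutants, so that run and genotype were nearly the same split there. On chow the lower-numbered run held 2 controls and 1 mutant, and the higher-numbered run held 2 controls and 3 mutants. Among 12704 genes, limma called 3197 (25.2%) at an adjusted p under 0.05 between the HFD runs with genotype in the fit, and 0 (0.0%) between the chow runs, where 11.6% passed an unadjusted p of 0.05. The tissue label matched its markers: 7 of 8 hepatocyte markers had a row, with Alb at 36000 or more in each library, and none of 6 pancreas markers had one. Liver Esr1 was still read in mutants, at 6.42 to 22.9 in HFD mutants, 6.14 to 8.09 in HFD controls, 8.02 to 19.6 in chow mutants and 7.59 to 15.9 in chow controls. The 3 mutants of the higher-numbered HFD run stood at 20.5 to 22.9 against 7.07 in its control, and the mutant of the lower-numbered run at 6.42. A level per gene cannot show whether the floxed part of Esr1 was kept.

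Slc10a1 was the most abundant of the 10, with a mean of 538 over 16 libraries and a range, 361 to 688, that did not reach that of any other. The mean level was 228 for Cyp27a1, 152 for Baat, 137 for Abcb11 and 122 for Cyp8b1. Below these came Cyp7a1 at 76.7, Nr1h4 at 70.6, Abcg5 at 60.9, Nr0b2 at 49.1 and Abcg8 at 47.8, and from Cyp27a1 downward every gene overlapped the next in rank. The genes also differed in how much they varied. Cyp7a1 ran from 12.1 to 239 among the libraries, a 19.7-fold range, and Nr0b2 from 9.65 to 108, an 11.2-fold range. Their SDs within groups were 0.99 and 0.92 on the log2 scale, which only 1.49% and 1.83% of the genes tested exceeded. Baat and Abcb11, the conjugating enzyme and the bile salt pump, were steady, with within-group SDs of 0.17 and 0.15 that 83.8% and 89.1% of genes exceeded, and the median gene stood at 0.26. In these bulk samples, fewer cells of a type and less RNA per cell cannot be told apart.

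**Figure D1:**
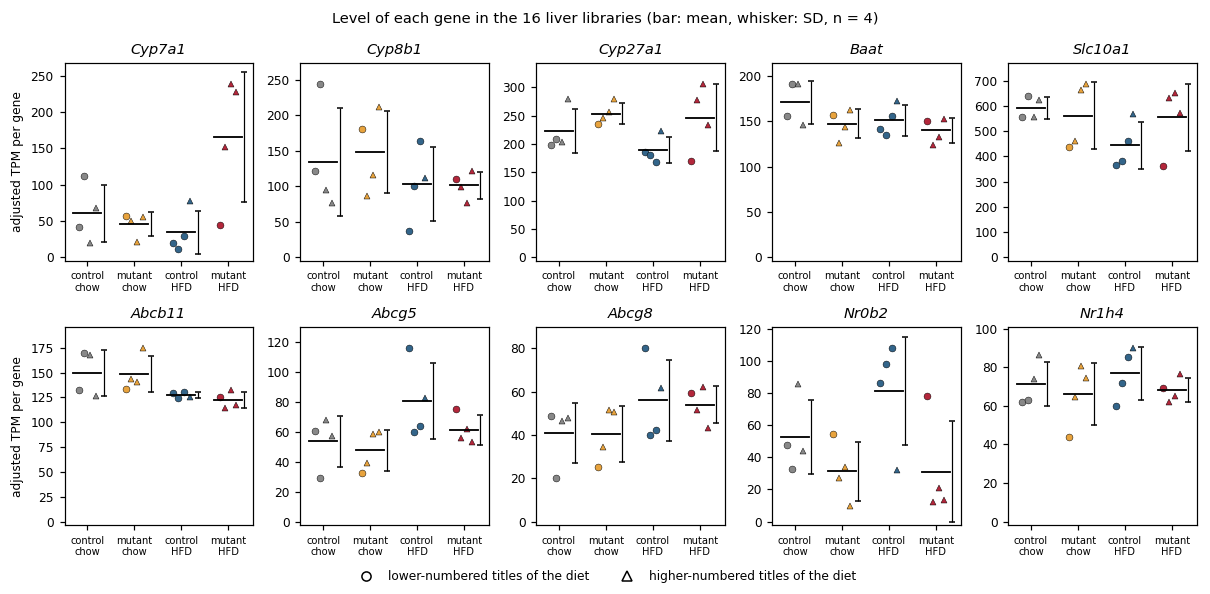
Level of each of the 10 genes in every liver library, in adjusted TPM per gene on a linear axis, by group. Points are single libraries, circles are the lower-numbered and triangles the higher-numbered titles of each diet, bars are group means and whiskers SDs (n = 4). The 3 triangles of mutants on HFD stand apart for Cyp7a1, from 152 to 239.

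Cyp7a1 was the member that differed most between genotypes on HFD. Its level was 45.1, 152, 239 and 228 in the 4 HFD mutants and 19.7, 12.1, 28.8 and 77.1 in the 4 HFD controls. The lowest mutant lay under the highest control, and the other 3 mutants lay above all controls. The means were 166 ± 89.2 and 34.4 ± 29.3 (SD, n = 4), a ratio of 4.82, and the fitted difference was 2.32 on the log2(value + 1) scale with an SE of 0.62. This difference did not pass the adjustment over all genes (limma, unadjusted p = 0.0020, adjusted p = 0.52), and an exact two-sided permutation test gave p = 0.0571, where 4 against 4 libraries cannot go below 0.0286. With the number run as a term the difference was 1.29 (unadjusted p = 0.020, adjusted p = 1.0). Within each run it had the same direction: in the lower-numbered run the single mutant stood at 45.1 against 12.1 to 28.8 in 3 controls, and in the higher-numbered run 3 mutants stood at 152 to 239 against 77.1 in the single control. Of the 16 fits that each left out 1 library, with differences from 1.95 to 2.85, 1 passed the adjustment: the one without HFD mutant replicate 1, the single mutant of the lower-numbered run (limma adjusted p = 0.032, with 141 genes called in all). Weighting libraries, which weighed that mutant and HFD control replicate 4 least, gave 3.22 (limma adjusted p = 0.0013, with 3926 genes called in all).

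On chow Cyp7a1 showed no such separation. The controls read 42.1, 112, 20.2 and 68.4 and the mutants 56.8, 50.3, 20.6 and 55.0, so that all mutants lay inside the range of the controls (exact permutation p = 0.743). Between diets, HFD mutants stood 1.69 above chow mutants on the log2 scale (SE 0.62, unadjusted p = 0.016, adjusted p = 0.63), and HFD controls read lower than chow controls in mean, 34.4 against 60.6, with overlapping values (exact permutation p = 0.286). The difference between the genotype effects on the 2 diets, tested directly as an interaction, was 2.56 (SE 0.88, unadjusted p = 0.011, adjusted p = 0.90), and 1.36 with the number runs in the fit. Cyp7a1 was the 1 member of 10 past an unadjusted p of 0.05 in that test, beside 4.21% of all genes. No member passed the adjusted threshold, and 0.0% of all genes did.

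Nr0b2, the repressor of Cyp7a1, lay on the opposite side. It read 78.1, 12.1, 20.9 and 13.2 in HFD mutants and 86.2, 98.2, 108 and 32.4 in HFD controls. Here too 3 mutants lay below every control and mutant replicate 1 did not. The means were 31.1 ± 31.6 and 81.2 ± 33.8 (SD, n = 4), and the fitted difference was -1.65 (SE 0.58, limma unadjusted p = 0.012, adjusted p = 0.54, exact permutation p = 0.0571). Within the runs the mutant read 78.1 against 86.2 to 108 and the mutants read 12.1 to 20.9 against 32.4, so the order was the same, but with the run as a term the difference shrank to -0.69. Leaving out single libraries gave -2.23 to -1.36, and 1 of 16 such fits passed, again the one without HFD mutant replicate 1 (limma adjusted p = 0.0495). Weighted libraries gave -2.41 (limma adjusted p = 0.0020), and the counts of all genes called under both are those given for Cyp7a1.

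On chow Nr0b2 read 47.9, 33.01, 85.6 and 44.3 in controls and 54.4, 27.2, 34.1 and 9.65 in mutants, with overlapping groups (exact permutation p = 0.229). The 3 mutants of the higher-numbered chow run, at 9.65 to 34.1, lay below its 2 controls at 44.3 and 85.6, whereas in the lower-numbered run the mutant, at 54.4, lay above the controls at 33.01 and 47.9. Nr1h4, the receptor upstream of Nr0b2, was among the steadier members and its groups overlapped in each comparison. Its group means were 71.3 ± 11.6 in chow controls, 66.0 ± 16.1 in chow mutants, 76.9 ± 13.6 in HFD controls and 68.3 ± 6.40 in HFD mutants (SD, n = 4), with exact permutation p from 0.314 to 0.80.

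**Figure D2:**
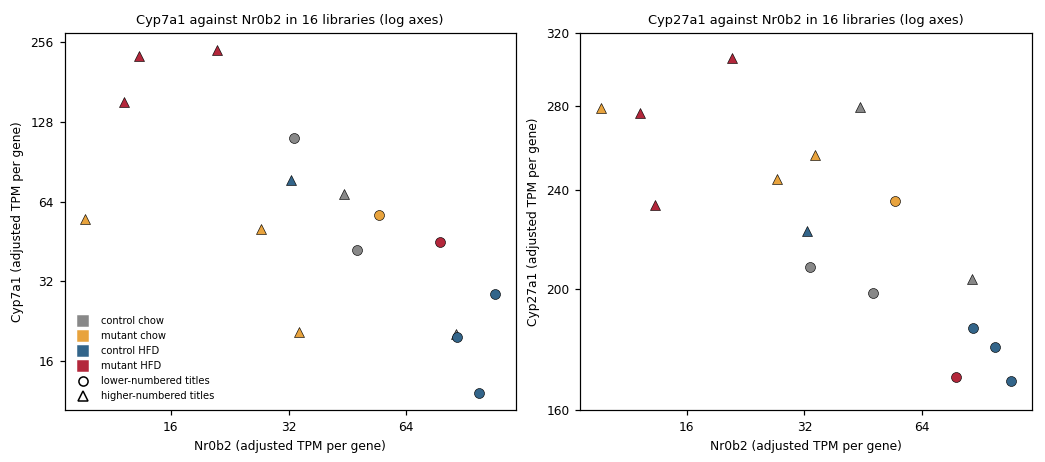
Cyp7a1 (left) and Cyp27a1 (right) against Nr0b2 in the 16 libraries, in adjusted TPM per gene on log axes, coloured by group and shaped by number run. Both enzymes read lower where Nr0b2 read higher, and the 4 circles of the lower-numbered HFD run, with Nr0b2 from 78.1 to 108, lie at the lower right.

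Of the other synthesis enzymes, Cyp27a1 was slightly higher in mean in mutants on both diets, and the values of Cyp8b1 overlapped among all 4 groups. Cyp27a1 read 170, 277, 306 and 233.4 in HFD mutants and 186, 180, 169 and 222 in HFD controls, a difference of 0.35 (SE 0.17, limma unadjusted p = 0.049, adjusted p = 0.58) that was 0.11 with the number run as a term. In the higher-numbered run 233.4 to 306 in mutants stood against 222, while in the lower-numbered run the mutant at 170 lay within the controls at 169 to 186. On chow the means were 223 ± 38.3 in controls and 254 ± 18.8 in mutants (exact permutation p = 0.171). Cyp8b1 read 121, 244, 94.4 and 76.7 in chow controls, 180, 85.7, 116 and 212 in chow mutants, 37.6, 99.9, 164 and 111 in HFD controls and 110, 98.6, 75.8 and 121 in HFD mutants. Its mean in mutants was 1.11 times that in controls on chow and 0.98 times on HFD (exact permutation p = 0.714 and 0.857). The ratio of Cyp7a1 to Cyp27a1, formed after the values were seen, was 0.64 ± 0.31 in HFD mutants and 0.18 ± 0.07 in chow mutants. These groups did not overlap (exact permutation p = 0.0286, the smallest possible). The ratio was 1 of 4 examined in 4 comparisons each, and its p is not adjusted. The HFD mutant of the lower-numbered run stood at 0.265, against 0.242 in the highest chow mutant, and the other HFD mutants at 0.55 to 0.98.

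Baat, the conjugating enzyme, and Slc10a1, the basolateral uptake carrier, came next along the route. Baat had group means of 171 ± 23.7 in chow controls, 147 ± 15.97 in chow mutants, 151 ± 16.6 in HFD controls and 140 ± 13.5 in HFD mutants (SD, n = 4), and its groups overlapped in every comparison. Slc10a1 read 366, 382, 462 and 568 in HFD controls against 558, 638, 555 and 622 in chow controls. Of the HFD controls, 3 lay below all chow controls and replicate 4 lay among them. The difference was -0.44 (SE 0.20, limma unadjusted p = 0.0497, adjusted p = 0.39, exact permutation p = 0.0857). In mutants the same comparison gave 361, 633, 652 and 572 on HFD and 436, 461, 662 and 688 on chow, with a ratio of means of 0.99 (exact permutation p = 0.914). A list of 21 acute-phase genes summed to 24240 and 127270 in chow mutant replicates 1 and 2, against 11506 to 13165 in the other chow libraries. Of these genes 9 were higher in chow mutants at a limma unadjusted p under 0.05, beside 6.08% of all genes. Its part in the comparisons that use chow mutants was not tested.

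Abcb11, the bile salt export pump, was the 1 member whose groups did not overlap between diets. It read 125, 114, 132 and 117 in HFD mutants and 134, 144, 141 and 175 in chow mutants. The gap between the highest HFD mutant and the lowest chow mutant was narrow, 132 against 134, and the ratio of means was 0.83 (log2 difference -0.27, SE 0.12, limma unadjusted p = 0.034, adjusted p = 0.71, exact permutation p = 0.0286). Over all genes 3.53% did not overlap in this comparison. HFD controls were tightly grouped at 125 to 131, and chow controls ran from 126 to 170 (exact permutation p = 0.114), so the pump read lower in mean on HFD in both genotypes, by a ratio of 0.86 in controls. In the annotation Abcb11 overlaps Gm13613, an antisense gene, and Gm13614, a pseudogene, and neither has a row in the table.

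Across the 4 comparisons, no member passed an adjusted p of 0.05 (limma, Benjamini-Hochberg over 12704 genes). For genotype on chow that was 0 of 10 beside 0.0236% of all genes, with 0 of 10 at an unadjusted p of 0.05 beside 6.08%. For genotype on HFD it was 0 of 10 beside 0.0157%, with 3 of 10 (Cyp7a1, Nr0b2 and Cyp27a1) unadjusted beside 8.6%. With the number runs as a term, 1 of 10 (Cyp7a1) and 568 of 12704 genes passed unadjusted for genotype on HFD, and 0 of 10 for the interaction. For diet in controls it was 0 of 10 beside 0.0%, with 2 of 10 (Slc10a1 and Abcg5) unadjusted beside 12.9%, and for diet in mutants 0 of 10 beside 0.0%, with 2 of 10 (Cyp7a1 and Abcb11) unadjusted beside 6.86%. Groups that did not overlap were found in 0 of 10 members between genotypes on chow (beside 3.05% of all genes), in 0 between genotypes on HFD (2.69%), in 0 between diets in controls (6.36%) and in 1 between diets in mutants (3.53%). The median difference over the 10 members was -0.12, -0.04, -0.19 and -0.05 in that order, beside 0.02, 0.02, -0.01 and -0.01 over all genes. The 2 genotype comparisons and the 2 diet comparisons share their libraries pairwise, so these counts are not independent.

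**Figure D3:**
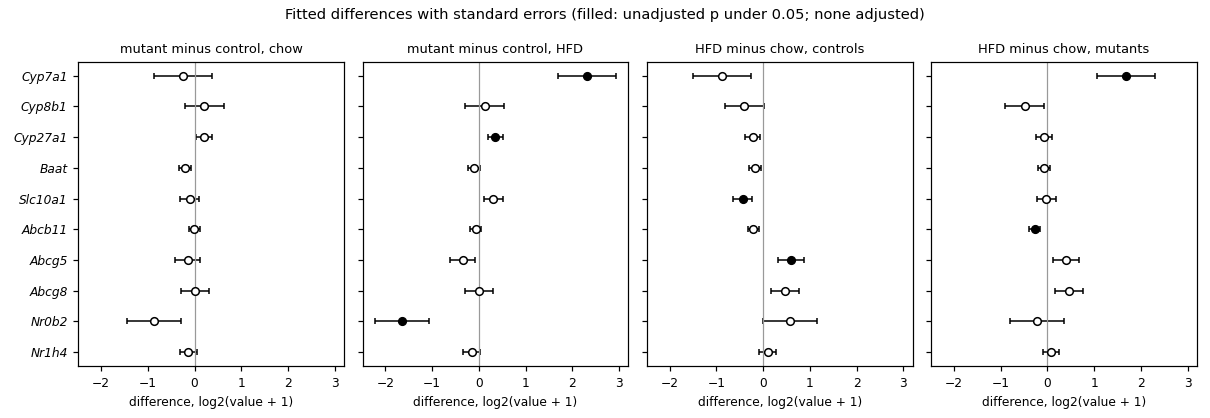
Fitted difference of each of the 10 genes in the 4 comparisons, on the log2(value + 1) scale, with standard errors as bars. Filled points passed an unadjusted p of 0.05 and none passed the adjusted threshold. Cyp7a1 at 2.32 and Nr0b2 at -1.65 lie farthest from 0 in the comparison of genotypes on HFD.

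The sterol transporters Abcg5 and Abcg8 kept step from library to library. Abcg5 read 116, 59.8, 64.1 and 82.5 in HFD controls and 60.6, 28.8, 67.9 and 57.4 in chow controls, and Abcg8 read 80.2, 39.9, 42.3 and 61.7 and 48.6, 20.1, 46.6 and 47.9 in the same libraries. HFD control replicate 1 was the highest and chow control replicate 2 the lowest of 16 libraries for both. Abcg5 was higher on HFD in controls by 0.60 (SE 0.27, limma unadjusted p = 0.044, adjusted p = 0.37, exact permutation p = 0.171), and without chow control replicate 2 by 0.33. In mutants Abcg5 read 75.5, 55.8, 61.8 and 53.1 on HFD and 32.3, 39.5, 58.7 and 59.8 on chow, and Abcg8 read 59.6, 51.3, 62.0 and 43.5 on HFD and 25.1, 34.2, 51.5 and 50.9 on chow. The HFD to chow ratio of means was 1.29 for Abcg5 and 1.34 for Abcg8, with overlap (exact permutation p = 0.229 and 0.171).

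The balance between the partners differed by genotype on HFD. The ratio of Abcg5 to Abcg8 was 1.14 ± 0.12 in HFD mutants and 1.45 ± 0.08 in HFD controls (SD, n = 4), and no mutant reached a control (exact permutation p = 0.0286, the smallest possible). Within the lower-numbered run the mutant stood at 1.27 against 1.45 to 1.51, and within the higher-numbered run the mutants stood at 1.00 to 1.22 against 1.34. On chow the ratio was 1.19 ± 0.07 in mutants and 1.33 ± 0.13 in controls, with overlap (exact permutation p = 0.114). This ratio was formed after the values were seen, it was 1 of 4 ratios examined in 4 comparisons each, and its p is not adjusted. The 2 genes lie on opposite strands and some of their annotated exons overlap, and whether counting used the strand was not given in the sources used here.

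**Figure D4:**
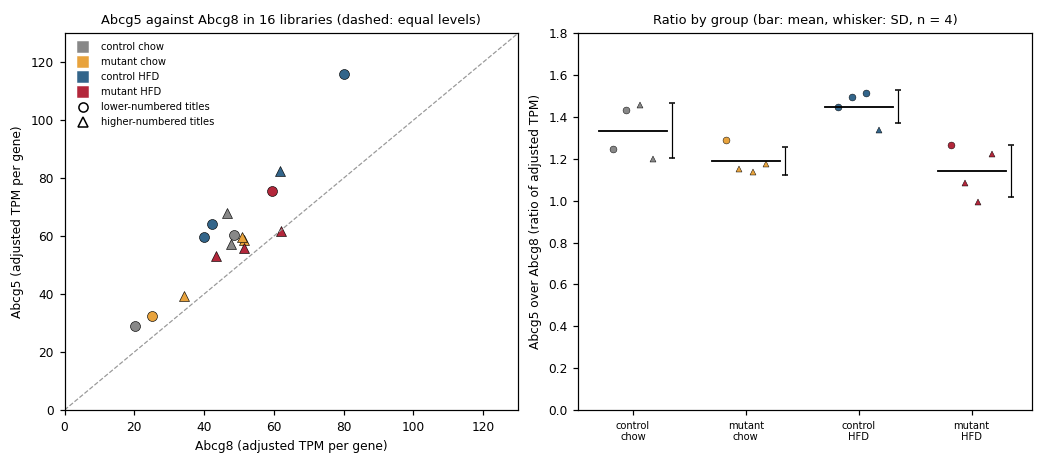
Left, Abcg5 against Abcg8 in the 16 libraries in adjusted TPM per gene, with equal levels as a dashed line. Right, the ratio of Abcg5 to Abcg8 by group, with means as bars and SDs as whiskers (n = 4). HFD mutants, at 1.00 to 1.27, lie below HFD controls, at 1.34 to 1.51.

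The split in which most of these genes were called was that between the number runs of the HFD libraries. With genotype in the fit, 4 of 10 members passed an adjusted p of 0.05, beside 25.2% of all genes, and 4 passed unadjusted, beside 37.8%. The median difference over the 10 members was 0.08, beside 0.04 over all genes. Cyp7a1 was higher in the higher-numbered run by 2.05 (SE 0.49, limma adjusted p = 0.0091), with levels of 77.1 to 239 against 12.1 to 45.1. Nr0b2 was lower (difference -1.93, SE 0.48, adjusted p = 0.012), with 12.1 to 32.4 against 78.1 to 108. Neither gene overlapped between the runs, and nor did Slc10a1 or Cyp27a1 below. The share of all genes without overlap between these runs was not counted. The lack of overlap thus cannot be called particular to these genes. A control stood among the high Cyp7a1 values and a mutant among the low ones. Slc10a1 was higher by 0.64 (SE 0.17, adjusted p = 0.014), at 568 to 652 against 361 to 462, and Cyp27a1 by 0.49 (SE 0.13, adjusted p = 0.017), at 222 to 306 against 169 to 186. The other 6 members did not pass, with Abcb11 at 122 ± 8.30 against 128 ± 3.21 and Baat at 145 ± 21.2 against 145 ± 9.39 (SD, n = 4). The calls rest on the 2 libraries that cross the runs: without control replicate 4, or without mutant replicate 1, 0 of 10 members passed. The differences themselves were then 2.14 and 1.96 for Cyp7a1, -2.31 and -1.55 for Nr0b2, 0.77 and 0.50 for Slc10a1 and 0.67 and 0.32 for Cyp27a1.

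The summed levels of 4 other lists also did not overlap between these runs. Red cell genes (5 of 5 with a row) summed to 4830 to 6922 in the lower-numbered HFD run and 1695 to 4547 in the higher-numbered one, and the 21 acute-phase genes, made by the liver in inflammation, to 14320 to 30515 and 11178 to 12953. Hepatocyte markers (7 of 8 with a row) summed to 65565 to 80610 and 83080 to 107680 in the same order. Alb, at 36000 to 79800 over all libraries, was the largest part of that sum. Of the 7 markers 2 were higher in the higher-numbered run, with a median difference of -0.22. The mean log2 level of the markers overlapped, at 12.24 to 12.35 in the lower-numbered run and 12.11 to 12.34 in the higher-numbered one. The 22 cholesterol synthesis genes, which make the substrate of Cyp7a1, summed to 832 to 1278 in the lower-numbered run and 1339 to 3323 in the higher-numbered one, with 10 of 22 higher at an adjusted p under 0.05, beside 25.2% of all genes. The summed levels of the periportal and pericentral hepatocyte, Kupffer cell, bile duct, small intestine and clock lists overlapped between the runs. The mean log2 level of the periportal list did not, at 8.734 to 9.079 in the lower-numbered run and 8.247 to 8.483 in the higher-numbered one. Of its 10 genes 2 were called, as lower, with a median difference of -0.46. For the pericentral list the mean log2 levels overlapped narrowly, at 6.777 to 7.164 and 7.161 to 7.536, with a median difference of 0.42. Cyp7a1 is known to cycle over the day, and of 17 clock genes 2 were called as higher and 1 as lower, beside 25.2% of all genes called. The part of these in the results for Cyp7a1, Nr0b2, Slc10a1 and Cyp27a1 was not tested.

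Between the chow runs no member passed the adjustment (limma, 0 of 10 beside 0.0% of all genes). Past an unadjusted p were 3 of 10, beside 11.6%: Nr1h4, higher in the higher-numbered run by 0.51 (SE 0.14, limma unadjusted p = 0.0026, adjusted p = 0.20), at 64.8 to 86.7 against 44.0 to 62.9, and the pair Abcg8 (0.68, SE 0.29, unadjusted p = 0.035) and Abcg5 (0.61, SE 0.26, unadjusted p = 0.036). Without chow control replicate 2 the differences were 0.41 for Abcg8 and 0.37 for Abcg5. Of the 17 clock genes, 10 were higher and 4 lower in the higher-numbered chow run at a limma unadjusted p under 0.05, and none passed the adjustment. What part this has in the member differences between the chow runs was not tested.

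The 10 genes were then compared in pairs over the 16 libraries. Of 45 pairs, 7 had a Pearson r past an adjusted p of 0.05 and 5 a Spearman rho (permutation test with 100000 resamples, Benjamini-Hochberg over 45 pairs). The closest pair was Abcg5 with Abcg8, with r = 0.93 (permutation p = 1e-05, the smallest possible, adjusted p = 4.5e-04) and rho = 0.72 (permutation p = 0.0021, adjusted 0.019), and r = 0.87 without the 2 libraries farthest from the median. Nr0b2 ran against Cyp27a1 with r = -0.79 (permutation p = 4e-04, adjusted 0.0090) and rho = -0.77 (permutation p = 7.2e-04, adjusted 0.0185), and against Cyp7a1 with r = -0.74 (permutation p = 0.0012, adjusted 0.0141) and rho = -0.77 (permutation p = 8.2e-04, adjusted 0.0185). It also ran against Slc10a1 with r = -0.71 (permutation p = 0.0026, adjusted 0.0230) and rho = -0.72 (permutation p = 0.0021, adjusted 0.0190), and Slc10a1 ran with Cyp27a1 at r = 0.74 (permutation p = 0.00125, adjusted 0.0141) and rho = 0.73 (permutation p = 0.0019, adjusted 0.0190). Leaving out the 2 farthest libraries gave r = -0.76, -0.68 and -0.66 for the Nr0b2 pairs in the same order and 0.74 for Slc10a1 with Cyp27a1.

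In the 12 libraries outside the lower-numbered HFD run, r was -0.58 for Nr0b2 with Cyp27a1, -0.62 with Cyp7a1 and -0.45 with Slc10a1, and 0.41 for Slc10a1 with Cyp27a1, while Abcg5 with Abcg8 stood at 0.95. After the group means were subtracted, r was -0.69, -0.72 and -0.80 for the Nr0b2 pairs. That subtraction leaves the number runs within each group in place. The permutations moved all 16 libraries freely, so their p takes no account of group or run, and no p was computed for the 12 libraries. Cyp8b1 ran against Abcg8 (r = -0.68, permutation p = 0.0044, adjusted 0.0329, rho = -0.48, permutation p = 0.0644, adjusted 0.32) and Abcg5 (r = -0.65, permutation p = 0.0077, adjusted 0.0497, rho = -0.36, permutation p = 0.17, adjusted 0.56), but without chow control replicate 2 and HFD control replicate 1 the values were -0.33 and -0.18, so these 2 relations rested on those libraries. Nr1h4 and its target Nr0b2 had r = -0.01 (permutation p = 0.963, adjusted 0.985) and rho = -0.06 (permutation p = 0.839, adjusted 0.921). The libraries share scaling and composition.

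**Figure D5:**
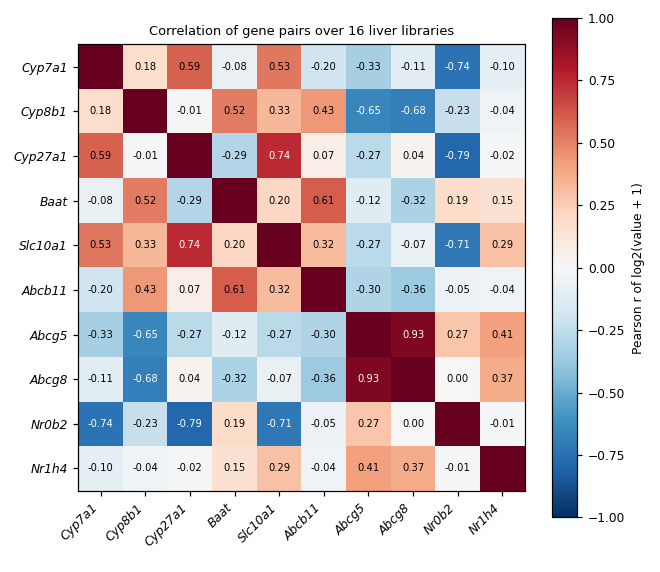
Pearson r of log2(value + 1) for each pair of the 10 genes over the 16 libraries, with red for positive and blue for negative values. Nr0b2 has its 3 strongest negative values, -0.79, -0.74 and -0.71, with Cyp27a1, Cyp7a1 and Slc10a1, and Abcg5 with Abcg8 has the strongest positive one, 0.93.

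The rest of the route was read from a list of 66 further genes of synthesis, conjugation, transport, regulation and sterol handling, of which 61 had a row and 60 were tested. None passed an adjusted p of 0.05 in the 4 comparisons or the interaction. At an unadjusted p, 5 were higher and 4 lower in HFD mutants than in HFD controls, and 0 were higher and 1 lower in chow mutants than in chow controls. Between diets 2 were higher and 6 lower on HFD in controls, and 1 and 1 in mutants. Over all genes the shares at that p were 8.6% and 6.08% in the 2 genotype comparisons and 12.9% and 6.86% in the 2 diet comparisons. The median difference of the list was -0.01 and -0.09 in the 2 genotype comparisons and -0.02 and 0.05 in the 2 diet comparisons. The gene with the smallest p on HFD was Slc10a2, the apical sodium-dependent bile acid carrier, which in liver is a gene of bile duct epithelium. Slc10a2 read 6.31, 6.44, 3.36 and 2.65 in HFD mutants and 9.75, 13.4, 9.21 and 13.2 in HFD controls. No mutant reached a control, in the whole comparison or within either number run, and the difference was -1.17 (SE 0.25, limma unadjusted p = 0.00030, adjusted p = 0.35). Over all genes 2.69% did not overlap between genotypes on HFD, and Slc10a2 was picked as the smallest p of 60 genes.

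Slc10a2 was also the gene of this list with the smallest p for genotype on chow, at 5.64, 4.67, 10.3 and 7.24 in mutants and 10.7, 8.30, 10.7 and 13.3 in controls (difference -0.59, SE 0.25, limma unadjusted p = 0.033, adjusted p = 0.80). The 10 bile duct and gallbladder genes, a list that holds Slc10a2, summed to 36.4 to 54.8 in HFD mutants and 41.1 to 57.6 in HFD controls, so the summed level of that list overlapped, and Krt19 lay between 0.48 and 2.55 in all libraries. On HFD the next genes were Abcc4, a basolateral efflux pump (mutants 3.16 ± 1.57, controls 1.39 ± 0.36, SD, n = 4), Mafg, a transcriptional repressor of bile acid enzymes (63.8 ± 14.0 and 90.6 ± 8.07), and Acnat1, an acyltransferase related to Baat (98.8 ± 18.7 and 70.5 ± 13.6). For diet in controls they were Slco1a4, an organic anion carrier (HFD 78.4 ± 16.2, chow 128 ± 21.3), Acnat1, the lipoprotein receptor Scarb1 (188 and 125 in mean) and Srebf1, a master regulator of lipid synthesis (366 and 226 in mean).

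Between the HFD runs, 15 of the 60 genes were higher and 4 lower at an adjusted p under 0.05, where 25.2% of all genes were called in either direction. By role they took in the 3 carriers Slco1a1, Slco1a4 and Slco1b2 of 5 uptake genes, 4 of 12 synthesis genes (Cyp39a1, Hsd3b7, Akr1d1 and Scp2), 2 of 6 canalicular exporters (Abcg2 and Abcb1b), 6 of 15 regulators (among them Nr5a2, the receptor LRH-1 that activates Cyp7a1, and Klb, the co-receptor for the ileal signal that lowers Cyp7a1) and, among the sterol handling genes, Stard4. The smallest p belonged to Nr1h2, the oxysterol receptor LXRβ, which was lower in the higher-numbered run (-0.50, SE 0.07, limma adjusted p = 5.8e-04). Stard4, a sterol carrier (1.30), Slco1a1 (2.04) and Cyp39a1, an oxysterol hydroxylase (1.02), followed and were higher (limma adjusted p = 0.0018, 0.0019 and 0.0022).

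Each gene's pattern over the 16 libraries was also set against 8659 genes with a mean of 5 or more, by Pearson r of log2 values. Nearest to Cyp7a1 were Prps1l3 (r = 0.87), Cxcl12 (0.86) and Smim15 (0.84), and nearest to Cyp8b1 was Fdft1 (0.82), the squalene synthase of the cholesterol pathway. Cyp27a1 was followed closest by Cyp2g1 (0.96), Sult5a1 (0.94) and Gbp5 (0.90), and Slc10a1 by Cyp2c68 (0.96), Acaca (0.93) and Nmt2 (0.93). The partner aside, Usp36 came nearest to both Abcg5 (0.85) and Abcg8 (0.81), with Cyp2e1 second for Abcg5 (0.84). Nr0b2 was nearest to Gpr108 (0.89), Spr (0.88) and Araf (0.87), Nr1h4 to Prpf18 (0.85), Abcb11 to C2cd2 (0.75) and Baat to Dele1 (0.74). These are the highest of many values and carry no test.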

How the data were processed

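Bulk liver RNA-seq of mice was analysed in 16 libraries. Per the labels and the study's methods, total RNA was purified with an Isolate II kit, libraries were made with NEBNext Ultra II and sequenced on an Illumina NovaSeq, and the authors quantified reads with kallisto on mm10 and used sleuth; versions were not given in the sources used here. The deposited signal values carry no stated unit and were read, from their column totals, as TPM per gene after a further scaling between libraries by the authors. No comparison columns were in the table. Genes reaching a value of 1 in 4 libraries or more entered the tests (12704). Values were fitted as log2(value + 1) by limma 3.58.1 in R 4.3.3, with 4 group means, a trended empirical Bayes variance and Benjamini-Hochberg adjustment over all genes tested. The fit was tested on simulated data. Single genes and ratios were compared by exact two-sided permutation tests (70 arrangements), and pairs by permutation. Fold changes on the log2(value + 1) scale understate those of low genes. Groups came from the genotype and treatment labels, and no source used here states that each library is a separate mouse, so p-values measure the spread between libraries, which may be technical. The members, the gene lists and the rule for named genes (all members; up to 4 genes of the wider list per comparison, by unadjusted p; the 3 most alike genes of each member) were chosen with earlier results of these data known. Gene positions were from GENCODE M21 (GRCm38; 15531 identifiers matched) and promoters from RefSeq. Alternatives covered scaling, pseudocount, filter, library weights, the libraries entered and the number runs. All 16 columns were used.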

Additional observations from a re-analysis of the deposited data

Results flagged for a closer look

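In 4 of the 56 sets of 4 libraries examined (10 genes and 4 ratios in 4 groups), 1 library stood far from the other 3 by Dixon's test, which chance alone does in about 1 in 20 sets. Cyp27a1 was 279.7 in chow control replicate 4, against 199 to 208 in the others. Abcg8 was 20.1 in chow control replicate 2, against 46.6 to 48.6. Nr0b2 was 78.1 in HFD mutant replicate 1, against 12.1 to 20.9, and this was the 1 mutant of the lower-numbered HFD run. The ratio of Cyp7a1 to Nr0b2 was 2.38 in HFD control replicate 4, against 0.12 to 0.27, and this was the 1 control of the higher-numbered HFD run.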

How the results depend on the processing

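All 15 member differences that were reported with a fitted value kept their direction under every alternative run. Library weights changed most: for genotype on HFD 4 members were called (Cyp7a1, Nr0b2, Cyp27a1 and Slc10a1) and 3926 genes in place of 2, for diet in controls 1 member (Slc10a1) and 2264 genes in place of 0, for diet in mutants 9 genes in place of 0, and for genotype on chow 6 in place of 3. These weights were lowest for HFD control replicate 4 (0.23) and HFD mutant replicate 1 (0.33), the 2 libraries that cross the number runs. With only the groups compared, the genes called were 6 and 1 between genotypes (chow, then HFD) and 4 and 1 between diets (controls, then mutants). Genotype on chow gave 1 gene with a filter at 5 and 1 with the number runs as a term. Diet in controls gave 2 genes with libraries rescaled to 1 common total and 3 without chow mutant replicates 1 and 2 (added after the data were seen), where diet in mutants gave 2. Rescaling moved the median of all genes to -0.16 for diet in controls, 0.13 for the interaction and 0.17 between the HFD runs, from -0.01, -0.01 and 0.04. The chow runs gave 2 genes with no filter. The cause of these shifts was not tested.

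Leaving out 1 library at a time, genes called between genotypes ranged from 1 to 14 on chow and from 2 to 141 on HFD (141 without HFD mutant replicate 1), and between diets from 0 to 928 in controls (928 without HFD control replicate 4) and from 0 to 2 in mutants. They ranged from 715 to 3723 between the HFD runs and 0 to 2 between the chow runs. Members called ranged from 0 to 2 for genotype on HFD and from 0 to 4 between the HFD runs. In the other comparisons no member was called in any of these fits. No paired analysis was possible because the labels carry no replicate numbers shared between groups. The table gives no reads, so depth and its limits are unknown.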
